A study of Mus musculus with 13 samples.

Results

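The extracellular matrix and fibroblast genes of mouse quadriceps muscle are a list of 34 collagen, basement membrane, proteoglycan, glycoprotein, matrix enzyme and fibroblast genes. They were taken from the list by name, and each was represented by its brightest probe set (a group of short array probes read as 1 value) among those with a single gene symbol. Of the 34 genes, 33 had such a probe set here and 29 were bright enough to be tested, out of 17097 genes measured and 10411 tested. Fbn1, which encodes the microfibril protein fibrillin 1, had no single-symbol probe set, so no signal of it was analysed here.

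Gene expression was measured on arrays in whole quadriceps of 13 male C57Bl/6 mice aged 4 months and fed standard chow, with 1 array for each animal. The groups were SKM-Tg (n = 4), read from the study's design as animals with more DOR function in muscle, Wt (n = 3), SKM-KO (n = 3), read as ablation of muscle DOR, and C (n = 3). DOR is an earlier name of Trp53inp2, a regulator of autophagy and coactivator of nuclear receptors. The labels do not say which promoter or Cre drives either allele, nor which control belongs to which group, so Wt was taken as the control of SKM-Tg and C as that of SKM-KO from their names. Animals are numbered here by order of deposit. The labels also carry animal numbers, which interleave between SKM-KO and C and are higher in SKM-Tg and Wt. A gap in these numbers parts animals 3 and 4 of SKM-Tg from the others of that group. Gaps also set animal 3 of Wt and animal 1 of both SKM-KO and C apart. Nothing says whether such gaps mark litters or cohorts, so the tests measure the spread between these animals. All values are log2 signals as deposited, on which a difference of 1 is a doubling, and signals of different genes are not compared with each other because probes differ in brightness.

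The extracellular matrix holds muscle fibres together and carries their force to the tendon. Fibroblasts between the fibres make most of the fibrillar collagens, which are stiffened by crosslinking enzymes and kept in order by small proteoglycans, while a basement membrane of collagen IV, laminins and nidogen wraps each fibre. Metalloproteinases and their inhibitors govern turnover, and glycoproteins such as fibronectin and periostin link cells to the fibrils and are known for their abundance in growing or injured tissue.

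The array medians lay between 4.85 and 4.94. The 13 arrays did not all resemble their own group. Over the genes tested, the median absolute log2 difference to the mean of the other arrays of the same group was 0.067 to 0.117 wherever an SKM-KO or C array was set against either of these groups, but 0.364 for Wt 2 and 0.334 for Wt 3. Wt 3 lay nearer to SKM-KO (0.097) and C (0.105) than to its own group, and Wt 2 slightly nearer to SKM-Tg (0.346). SKM-Tg 1 lay nearer to C (0.125) than to its own group (0.174), and SKM-Tg 3 nearer to Wt (0.119) than to its own group (0.202). Signals of Trp53inp2 were 8.58, 8.79 and 8.99 in SKM-KO, against 11.06, 11.19 and 11.15 in C, and they were 11.11, 11.03, 11.28 and 11.24 in SKM-Tg, against 11.20, 11.46 and 11.00 in Wt. Its signal was therefore low in every SKM-KO array and overlapped between SKM-Tg and Wt, and where the probe set lies relative to the transgene is not given. All 8 muscle fibre markers on the list used here passed the brightness limit, a mean log2 signal of 4.90. No scan date or strip is given, so the line of the mice and any batch cannot be told apart.

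Among 6 fibroblast markers, Dcn, Col1a1, Col3a1, Dpt and Lum passed the brightness limit, and Pdgfra did not. Pdgfra encodes the platelet-derived growth factor receptor that marks muscle fibroblasts. Its signals were 3.96, 3.99, 4.09 and 4.11 in SKM-Tg, against 3.98, 4.21 and 4.01 in Wt, and 4.05, 3.85 and 4.06 in SKM-KO, against 4.03, 4.11 and 4.04 in C. All of these lie below the brightness limit, and the groups overlap. Col1a2, the partner chain of Col1a1 in type I collagen, was likewise dim, with signals between 4.71 and 4.90 over the 13 arrays. Pdgfra and Col1a2 had only 1 single-symbol probe set each, and how well these report the transcripts was not tested. Tnc, the adhesion-modulating glycoprotein tenascin C, ranged between 4.65 and 5.22. Timp1, an inhibitor of metalloproteinases, had signals of 3.92, 3.91, 4.33 and 3.88 in SKM-Tg, against 4.41, 4.66 and 3.94 in Wt. In SKM-KO its signals were 3.95, 4.02 and 3.87, against 4.05, 4.32 and 4.14 in C. The 3 SKM-KO arrays lay below the 3 C arrays by a mean of 0.22, at a signal below the limit, and only just parted, at 4.02 against 4.05. Of all genes tested, 7.49% did not overlap between SKM-KO and C. No test was made for Pdgfra, Col1a2, Tnc and Timp1.

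In SKM-Tg, SKM-KO and C, matrix signals differed between animals of 1 group more than the median gene did, and in Wt less clearly. The pooled within-group SD had a median of 0.34 over the 29 members tested, against 0.19 over all 10411 genes. It lay above the median of all genes for 25 members and above their upper quartile of 0.27 for 20. Group by group, the members' median SD was 0.34 in SKM-Tg (0.17 over all genes), 0.28 in Wt (0.25), 0.21 in SKM-KO (0.098) and 0.17 in C (0.096). It exceeded the median of all genes for 23, 16, 26 and 24 members in that order, and their upper quartile for 19, 7, 22 and 17. The widest spreads belonged to Col1a1 (0.49), the main chain of type I collagen, Col6a3 (0.47), a chain of the collagen VI network around fibres, and Mfap5 (0.43), a microfibril protein. The narrowest belonged to Lama2 (0.11), the laminin chain of the muscle basement membrane, Dcn (0.12), the small proteoglycan decorin, and Sparc (0.13), a collagen-binding glycoprotein. Within SKM-Tg alone, the range over the 4 animals exceeded the distance between the SKM-Tg and Wt means for 29 of 29 members, with a median range of 0.78, and it did so for 92.2% of all genes. Within SKM-KO the range also exceeded the distance to the C mean for 29 of 29, with a median range of 0.42, and for 88.3% of all genes.

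**Figure D1:**
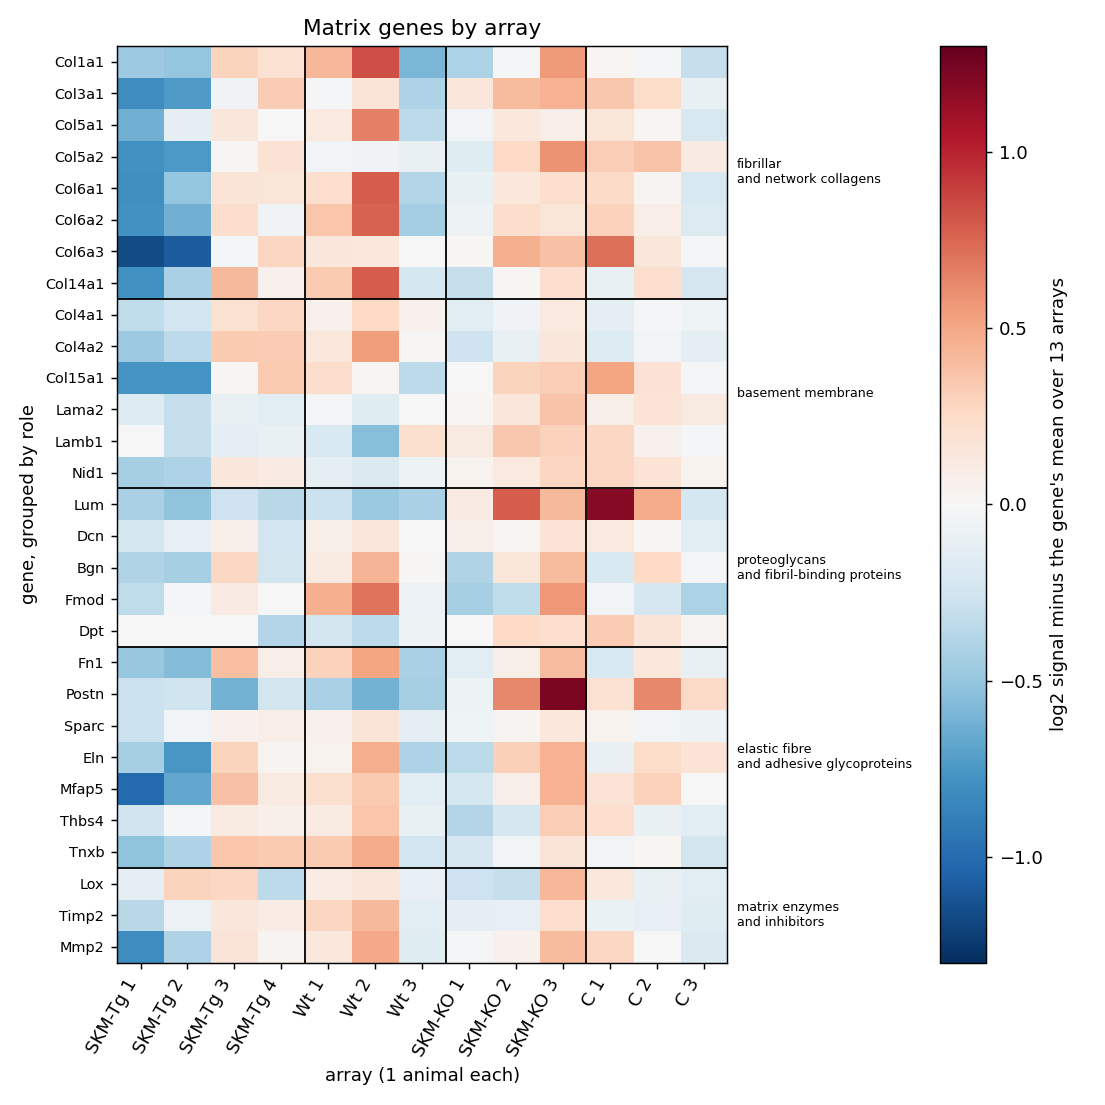
Log2 signal of each of the 29 matrix genes tested, minus the mean of that gene over the 13 arrays, with genes in rows grouped by role and arrays in columns grouped as SKM-Tg, Wt, SKM-KO and C. Red is above the gene's mean and blue below it. SKM-Tg 1 has 0 of 29 genes above their means and SKM-KO 3 has 29 of 29.

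Many of the members were high or low in the same animals. The mean deviation of the 29 members from their own means over all arrays was -0.49, -0.38, 0.12 and 0.04 in the SKM-Tg animals and 0.10, 0.25 and -0.19 in the Wt animals. It was -0.12, 0.13 and 0.35 in the SKM-KO animals and 0.17, 0.11 and -0.09 in the C animals. SKM-Tg 1 and SKM-Tg 2 were thus the lowest of all 13 arrays, with 0 and 2 of 29 members above their means, where 41.7% and 44.3% of all genes were above theirs. SKM-Tg 3 and SKM-Tg 4 had 23 and 19 members above, with 58.7% and 41.3% of all genes, and SKM-KO 3 had 29, with 48.7% of all genes. The split within SKM-Tg falls on the gap in the animal numbers, and an effect of litter or cohort was not tested. Among the 7 SKM-Tg and Wt arrays, SKM-Tg 1 held the lowest signal for 17 members (22.0% of all genes) and Wt 2 the highest for 16 (42.1% of all genes). Among the 6 SKM-KO and C arrays, SKM-KO 3 held the highest for 21 members (19.1% of all genes), SKM-KO 1 the lowest for 14 (23.7%) and C 3 the lowest for 13 (11.2%). In whole muscle, fewer fibroblasts and less matrix RNA in each fibroblast cannot be told apart.

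Marker lists of other cell types, and a list of other fibroblast markers, differed between the same animals to different extents. The 11 macrophage markers tested had mean deviations of -0.54, -0.41, 0.19 and 0.11 in SKM-Tg and 0.06, 0.22 and -0.17 in Wt, and of 0.08, 0.16 and 0.34 in SKM-KO and 0.08, 0.18 and -0.29 in C. SKM-Tg 1 and SKM-Tg 2 were the lowest arrays for macrophage markers too, with 0 of 11 above their means in both. The 14 other fibroblast markers had mean deviations of -0.37, -0.33, 0.16 and 0.11 in SKM-Tg and 0.15, 0.30 and -0.10 in Wt, and of -0.11, 0.06 and 0.15 in SKM-KO and 0.07, 0.02 and -0.12 in C. SKM-Tg 1 and SKM-Tg 2 were again the lowest. The 12 endothelial markers had -0.19, -0.23, 0.24 and 0.08 in SKM-Tg and 0.09, 0.31 and 0.06 in Wt, and lay between -0.11 and 0.02 over SKM-KO and C. The 6 smooth muscle and pericyte markers had -0.13, -0.30, 0.03 and -0.07 in SKM-Tg and 0.08, -0.01 and 0.03 in Wt, and lay between 0.02 and 0.14 over SKM-KO and C. SKM-Tg 1 and SKM-Tg 2 were the lowest arrays for both of these lists as well. The 4 fat cell markers had 0.48, 1.86, 0.67 and 0.74 in SKM-Tg, -0.19, 0.95 and -0.92 in Wt, -1.01, 0.99 and -1.20 in SKM-KO, and -0.42, -1.05 and -0.90 in C, an order of the animals unlike that of the matrix genes. The 5 tendon markers had -0.24, -0.10, -0.10 and -0.15 in SKM-Tg and 0.23, 0.35 and -0.11 in Wt. They had -0.44, 0.06 and 0.66 in SKM-KO and 0.07, -0.02 and -0.23 in C. The 4 Schwann cell markers had -0.26, 0.12, 0.41 and 0.26 in SKM-Tg and 0.07, 0.21 and -0.03 in Wt. In SKM-KO these markers had 0.33, 0.03 and -0.22, against -0.33, -0.24 and -0.35 in C, with the lowest levels in C 3 and C 1. The 8 muscle fibre markers stayed between -0.12 and 0.06 in every array. The ratio of 3' to 5' probe signals, a sign of RNA quality, differed little between arrays, at -0.31 to -0.15 for Actb and 0.23 to 0.30 for Gapdh on the log2 scale.

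**Figure D2:**
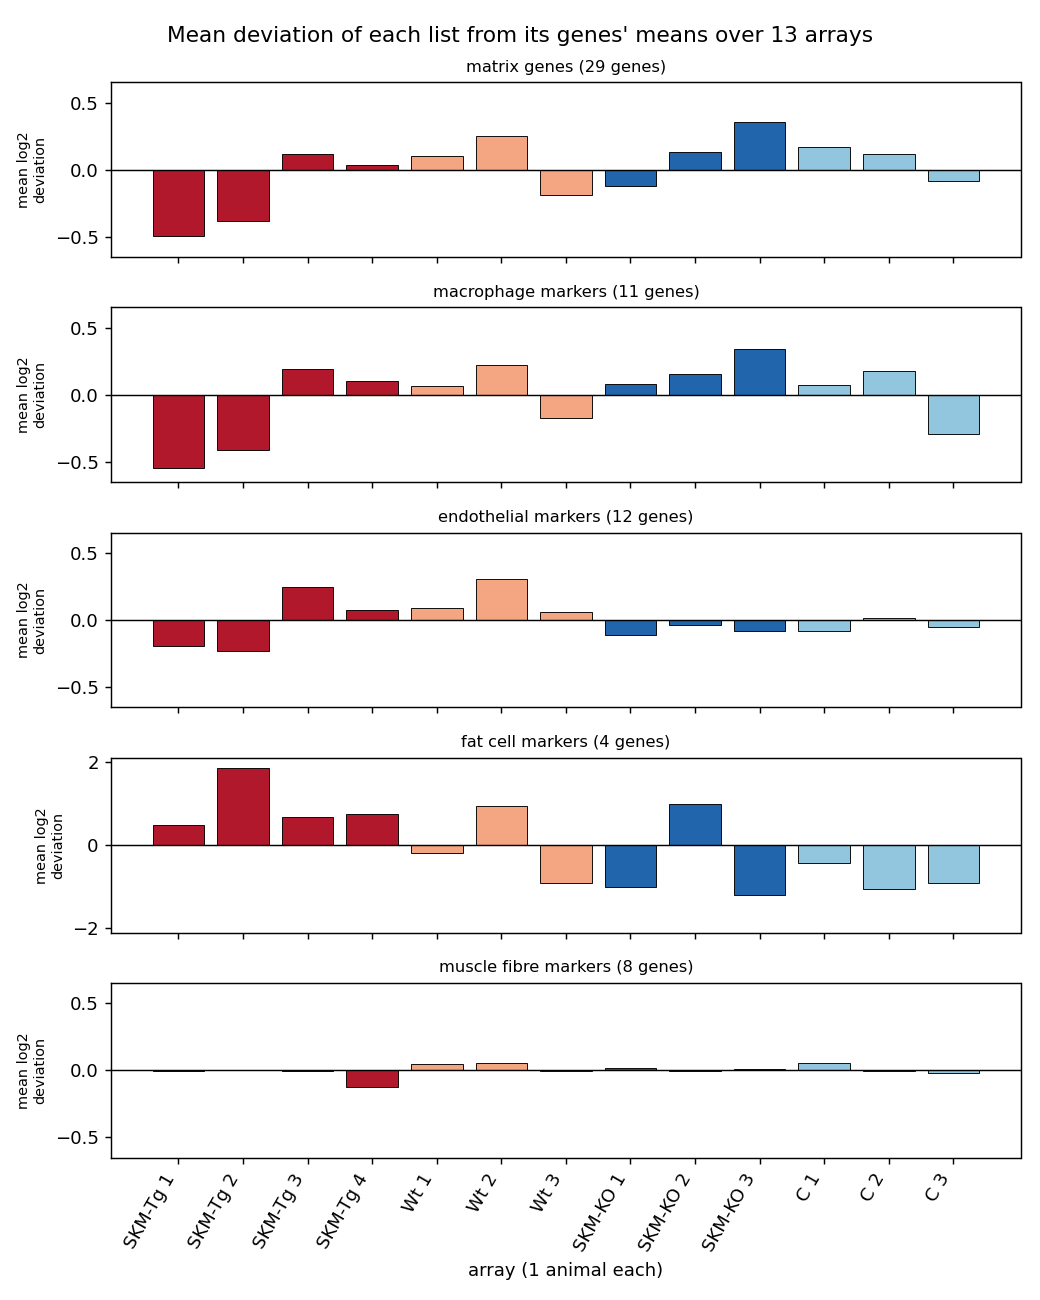
Mean log2 deviation of 5 gene lists from each gene's mean over the 13 arrays, with 1 bar per array and colours for SKM-Tg, Wt, SKM-KO and C. The fat cell panel has a wider vertical axis than the others. Matrix genes and macrophage markers are both lowest in SKM-Tg 1 and SKM-Tg 2, while muscle fibre markers stay within -0.12 and 0.06.

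The first comparison asked whether the matrix genes differed between SKM-Tg, read as gain of function, and Wt, though Trp53inp2 signals of these groups overlapped. Of the 29 members tested, 25 had a lower mean in SKM-Tg than in Wt and 4 a higher one, with a median difference of -0.26 and a range between -0.59 and 0.15. No member passed limma's threshold, an adjusted p of 0.05 (0.0% of all genes tested passed), and 0 had an unadjusted p under 0.05 (6.89% of all genes). The smallest adjusted p was 0.702, and the groups overlapped for 29 of 29 members, where 3.97% of all genes did not overlap. Over all genes tested the median difference was -0.05, and 62.2% of genes were below 0 and 37.8% above. That share depends on the scaling, since 53.7% of all genes and 24 members were below 0 after quantile normalization, and 50.9% and 23 members after cyclic loess.

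Fibrillar and network collagens had the most negative values in this comparison, with a median of -0.40 and 8 of 8 below 0. Col6a3 had signals of 6.02, 6.10, 7.16 and 7.46 in SKM-Tg, against 7.33, 7.31 and 7.18 in Wt. SKM-Tg 1 and SKM-Tg 2 lay more than 1 log2 unit under the Wt arrays, SKM-Tg 3 lay level with the lowest of them and SKM-Tg 4 above all 3. Its difference was -0.59 (SE 0.31, limma adjusted p 0.702), a ratio of 0.665. Col6a2, another collagen VI chain, had 6.17, 6.33, 7.19 and 6.91 in SKM-Tg, against 7.32, 7.72 and 6.51 in Wt, with Wt 3 inside the range of SKM-Tg. That difference was -0.53 (SE 0.28, limma adjusted p 0.702, 95% interval -1.15 to 0.08). Col6a1, the third chain, stood at -0.45 (SE 0.28).

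Col1a1 and Col3a1, the chains of collagens I and III that make up most fibrils, showed how far single animals decide a mean. Col1a1 had signals of 9.39, 9.37, 10.16 and 10.07 in SKM-Tg, against 10.30, 10.71 and 9.27 in Wt. Wt 3 was the lowest of all 7 arrays, so the Wt range enclosed the SKM-Tg range. The difference of -0.35 (SE 0.32, limma adjusted p 0.741) became -0.76 without Wt 3 and -0.04 without Wt 2. Col3a1 had 9.40, 9.46, 10.16 and 10.53 in SKM-Tg, against 10.18, 10.37 and 9.80 in Wt, with SKM-Tg 4 the highest of the 7. It differed by -0.23 (SE 0.25), and by -0.07 without SKM-Tg 1 and -0.44 without SKM-Tg 4. Col5a1 and Col5a2, chains of the collagen V that starts fibrils, stood at -0.30 and -0.28, and Col14a1, a fibril-associated collagen, at -0.48.

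Proteoglycans and fibril-binding proteins had a median of -0.20, with 3 of 5 below 0. Dcn, whose product binds collagen fibrils and limits their width, had the smallest unadjusted p of all members. Its signals were 10.65, 10.77, 10.95 and 10.63 in SKM-Tg, against 10.95, 11.03 and 10.87 in Wt. SKM-Tg 1, 2 and 4 lay below all 3 Wt arrays and SKM-Tg 3 lay among them. The difference was -0.20 (SE 0.10, unadjusted p 0.076, limma adjusted p 0.702). Bgn, the related proteoglycan biglycan, had 8.28, 8.24, 8.94 and 8.43 in SKM-Tg, against 8.79, 9.11 and 8.68 in Wt, a difference of -0.39 (SE 0.21). Fmod, or fibromodulin, which guides collagen crosslinking, had 9.18, 9.49, 9.61 and 9.52 in SKM-Tg, against 9.97, 10.21 and 9.43 in Wt, a difference of -0.42 (SE 0.24). For both genes 1 animal made the overlap, SKM-Tg 3 for Bgn and Wt 3 for Fmod. Lum (lumican) and Dpt (dermatopontin), which also bind fibrils, stood at 0.00 and 0.12.

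Basement membrane genes had a median of -0.13, with 5 of 6 below 0. Col4a1, a chain of the collagen IV sheet, had 10.47, 10.54, 10.99 and 11.07 in SKM-Tg, against 10.85, 11.05 and 10.84 in Wt. The SKM-Tg animals fell on both sides of Wt, and the difference was -0.15 (SE 0.15, limma adjusted p 0.747). Its partner chain Col4a2 and Col15a1, a collagen of the basement membrane zone, both stood at -0.27. Lama2 stood at -0.12, the nidogen gene Nid1 at -0.02 and the laminin chain Lamb1 at 0.05. Dimmer probe sets past the brightness limit gave -0.21 for Nid1 and -0.31 for Col4a1. The 3 Lamb1 probe sets past the brightness limit gave 0.05, -0.35 and 0.02, so the sign of Lamb1 depends on the probe set.

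Elastic fibre and adhesive glycoprotein genes had a median of -0.25, with 6 of 7 below 0. Fn1, or fibronectin, had 7.36, 7.29, 8.23 and 7.93 in SKM-Tg, against 8.14, 8.37 and 7.42 in Wt. As for Col1a1, SKM-Tg 1, SKM-Tg 2 and Wt 3 were the low arrays, and the difference was -0.27 (SE 0.26, limma adjusted p 0.741). Mfap5 stood at -0.43 by its brighter probe set and at -0.09 by the other one past the limit. The elastin gene Eln stood at -0.26, and Tnxb, which encodes the collagen-spacing tenascin X, at -0.25. Thbs4, a thrombospondin of muscle and tendon matrix, and Sparc stood at -0.15 and -0.08. Postn, which encodes periostin, stood at 0.15.

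Among the 3 enzyme and inhibitor genes tested, 3 were below 0 with a median of -0.24. Mmp2, a secreted gelatinase, had 7.09, 7.50, 8.07 and 7.93 in SKM-Tg, against 8.04, 8.39 and 7.75 in Wt. SKM-Tg 1 and SKM-Tg 2 lay below all Wt arrays and the others among them, with a difference of -0.41 (SE 0.23, limma adjusted p 0.702). Timp2, an inhibitor of metalloproteinases, had 9.42, 9.70, 9.92 and 9.87 in SKM-Tg, against 10.06, 10.20 and 9.63 in Wt. The lowest values were those of SKM-Tg 1 and Wt 3, and Wt 1 and Wt 2 lay above all SKM-Tg arrays. The difference was -0.24 (SE 0.15), and its 5 probe sets ran between -0.37 and -0.24. Lox, which crosslinks collagen and elastin, stood at -0.02.

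**Figure D3:**
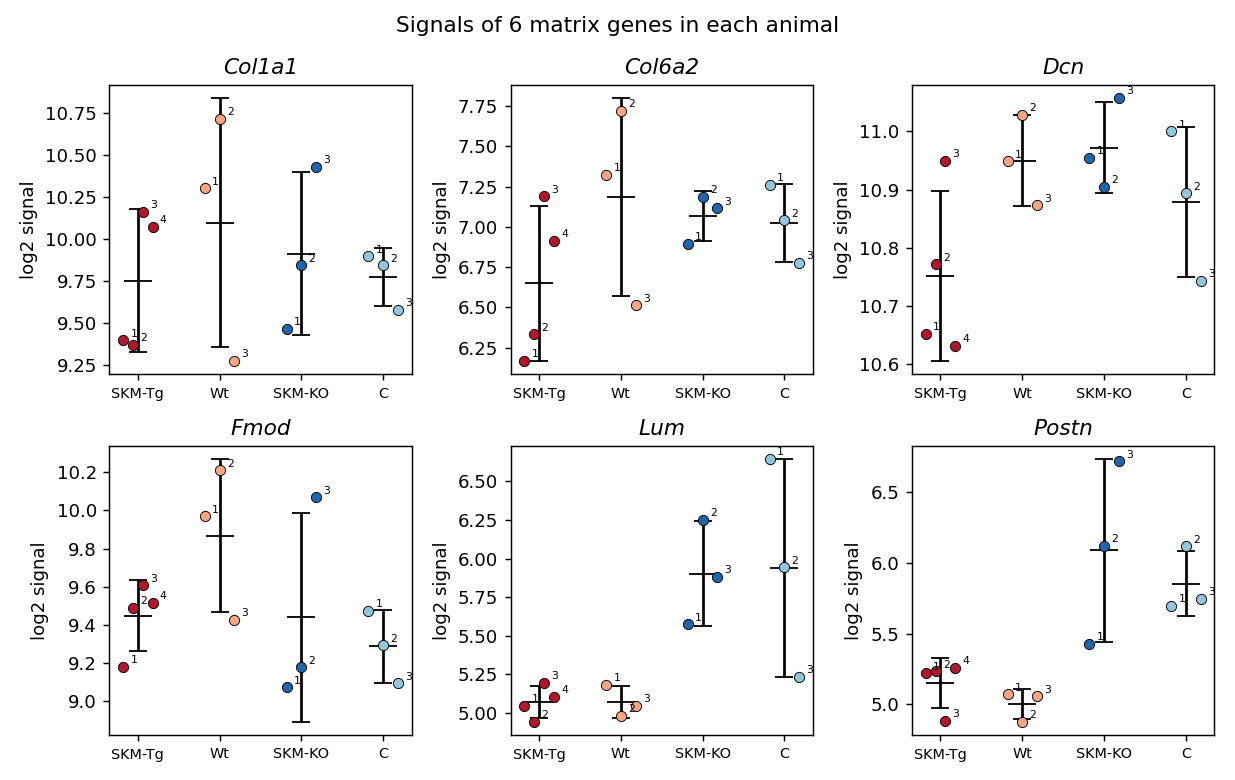
Log2 signal of Col1a1, Col6a2, Dcn, Fmod, Lum and Postn in every animal, in the order SKM-Tg, Wt, SKM-KO and C; numbers beside points are the animals, horizontal lines are group means and bars are 1 SD on either side (n = 4, 3, 3 and 3). Col1a1 and Col6a2 overlap between SKM-Tg and Wt, with Wt 3 at 9.27 and 6.51, while Postn and Lum are low in every SKM-Tg and Wt animal.

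The size of these differences leaned on single arrays, both SKM-Tg animals and the Wt arrays that stood apart from their group. Without Wt 3 the members' median was -0.40 and 9 had an unadjusted p under 0.05, namely Col1a1, Col5a1, Col6a1, Col6a2, Col14a1, Fmod, Fn1, Mmp2 and Timp2, yet 0 passed the adjusted threshold and the smallest adjusted p was 0.0762. In that fit 30 genes passed among all genes tested (0.288%) and 30.8% of all genes had an unadjusted p under 0.05. Without Wt 2 the members' median was -0.12 and 0 had an unadjusted p under 0.05. Leaving out SKM-Tg 1 or SKM-Tg 2 brought the median to -0.13 or -0.14, and leaving out SKM-Tg 3 brought it to -0.39 with 7 members at an unadjusted p under 0.05, as 12.3% of all genes had. With array quality weights, under which Wt 1 weighed 7.23 against 0.147 for Wt 2 and 0.23 for Wt 3, 10 members passed the adjusted threshold, and so did 14.3% of all genes. They were Col1a1 (-0.70), Col6a1, Col6a2 (-0.82), Col6a3 (-0.90), Col14a1, Col15a1, Fn1 (-0.62), Mfap5, Timp2 and Tnxb.

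Ablation was examined in SKM-KO against C, where the matrix genes lay close together. The median difference of the 29 members was 0.05, with 21 above 0 and 8 below, and the range ran between -0.09 and 0.24. Limma called 0 of 29 at an adjusted p of 0.05 (0.00961% of all genes, which is 1 gene) and 0 at an unadjusted p under 0.05 (0.557% of all genes). The smallest adjusted p was 1.0, and 0 of 29 members were free of overlap between the groups, against 7.49% of all genes. Over all genes the median was 0.01, with 54.0% above 0 and 46.0% below. The model shares 1 estimate of spread between all groups. Over all genes the median SD was 0.25 in Wt and 0.17 in SKM-Tg, but 0.098 in SKM-KO and 0.096 in C. The tests of SKM-KO minus C were therefore on the cautious side. In a fit of SKM-KO and C alone, 2.74% of all genes and no member had an unadjusted p under 0.05. The members' direction rested on single arrays. Without SKM-KO 1, 29 members were above 0 and 0 below with a median of 0.14, without SKM-KO 3 there were 8 above and 21 below with a median of -0.05, and without C 3 there were 15 above and 14 below with a median of 0.02. With array quality weights 29 were above 0 and 0 below, with a median of 0.14. By role the medians were 0.05 for fibrillar and network collagens, 0.04 for basement membrane genes, 0.04 for proteoglycans, 0.05 for glycoproteins and 0.11 for enzymes and inhibitors.

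Periostin had the largest positive difference here. Postn signals were 5.43, 6.12 and 6.72 in SKM-KO, against 5.70, 6.12 and 5.75 in C. SKM-KO 1 was the lowest of the 6 arrays and SKM-KO 3 the highest, which put C inside the SKM-KO range. The difference of 0.24 (SE 0.25, limma adjusted p 1.0) turned to -0.08 without SKM-KO 3 and became 0.57 without SKM-KO 1. Lamb1 had 6.79, 7.02 and 6.97 in SKM-KO, against 6.94, 6.72 and 6.65 in C, a difference of 0.16 (SE 0.17). Only C 1 lay within the SKM-KO range. Dcn had 10.95, 10.90 and 11.06 in SKM-KO, against 11.00, 10.89 and 10.74 in C, a difference of 0.09 (SE 0.11, 95% interval -0.14 to 0.33), with C 1 above 2 of the SKM-KO arrays.

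For fibrillar collagens and fibronectin the range over the SKM-KO animals exceeded the difference to C, as it did for 88.3% of all genes. Col1a1 had 9.46, 9.84 and 10.43 in SKM-KO, against 9.90, 9.84 and 9.58 in C. The difference of 0.14 (SE 0.35) turned to -0.12 without SKM-KO 3 and became 0.36 without SKM-KO 1. Col3a1 had 10.35, 10.62 and 10.65 in SKM-KO, against 10.55, 10.44 and 10.10 in C, a difference of 0.18 (SE 0.27). Fn1 had 7.71, 7.92 and 8.25 in SKM-KO, against 7.65, 7.98 and 7.75 in C, a difference of 0.17 (SE 0.27). In each of these 3 genes SKM-KO 3 was the highest of the 6 arrays. Col4a1 had 10.66, 10.75 and 10.92 in SKM-KO, against 10.68, 10.77 and 10.74 in C, and Timp2 had 9.65, 9.67 and 9.99, against 9.69, 9.66 and 9.61 in C. Their differences were 0.05 (SE 0.16) and 0.11 (SE 0.16), and Col4a1 turned to -0.02 without SKM-KO 3. The most negative members were Thbs4 at -0.09 and Mfap5 at -0.06, both above 0 with array quality weights (0.04 and 0.06), and the second Mfap5 probe set past the limit gave 0.14. The other 6 members with a lower mean in SKM-KO lay between -0.04 and -0.01.

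**Figure D4:**
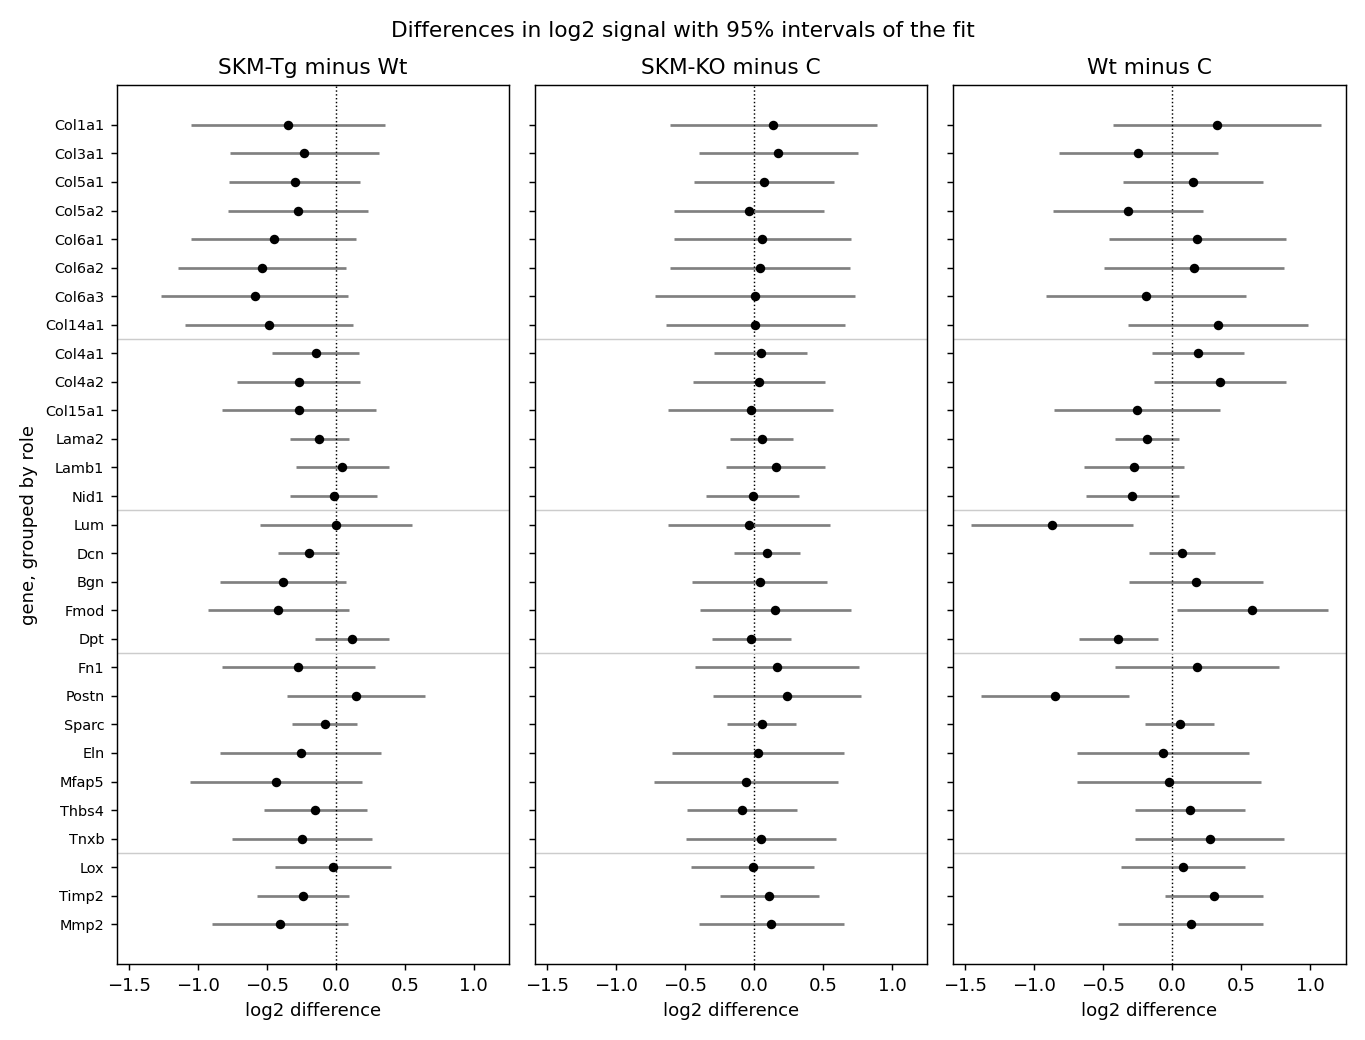
Differences in log2 signal of the 29 matrix genes in 3 panels, SKM-Tg minus Wt, SKM-KO minus C and the controls Wt minus C, grouped by role; points are estimates and bars their 95% intervals from limma, unadjusted for the number of genes. The intervals include 0 for every gene in SKM-Tg minus Wt and SKM-KO minus C, and exclude it for Lum, Dpt, Postn and Fmod in Wt minus C.

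The wide intervals set the limit of what the 2 comparisons can show. For Col1a1 the 95% interval ran between -1.05 and 0.36 in SKM-Tg minus Wt and between -0.61 and 0.89 in SKM-KO minus C. For Lama2, whose spread was the smallest, it ran between -0.34 and 0.09 and between -0.17 and 0.28. The difference of the 2 effects, SKM-Tg minus Wt less SKM-KO minus C, had a median of -0.30 over the members with 27 of 29 below 0 and 2 above, against a median of -0.06 with 61.7% below 0 and 38.3% above over all genes. Limma called 0 members on it at an adjusted p of 0.05 (0.0192% of all genes) and 0 at an unadjusted p under 0.05 (3.1% of all genes), with a smallest adjusted p of 0.989. Dcn stood at -0.29 (SE 0.15), Fmod at -0.57 (SE 0.35), Mmp2 at -0.53 (SE 0.33), Timp2 at -0.35 (SE 0.23), Col6a2 at -0.58 (SE 0.41) and Bgn at -0.43 (SE 0.31). With array quality weights Col6a2 passed (-1.01), as did 2.18% of all genes. In the fit without weights, SKM-Tg minus Wt and SKM-KO minus C were not shown to differ for these genes.

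The last comparison set the control groups side by side, Wt against C. From their names these are taken to belong to different lines, and C and Wt are also the controls in the comparisons above, so their values are shared. The members' median was 0.08 with 17 above 0 and 12 below, against 0.06 with 58.8% above 0 and 41.2% below over all genes. Limma called 0 of 29 at an adjusted p of 0.05 (0.00961% of all genes), with a smallest adjusted p of 0.144. At an unadjusted p under 0.05 there were 4 members (27.8% of all genes), Postn, Lum and Dpt with lower signals in Wt (11.6% of all genes) and Fmod with higher ones (16.2% of all genes). Wt lay wholly below C for 6 members (8.51% of all genes), which were Postn, Lum, Dpt, Nid1, Lama2 and Col5a2, and wholly above it for Col4a1 and Col4a2 (15.4% of all genes).

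Lumican and periostin had the largest differences between the controls. Lum signals were 5.18, 4.98 and 5.05 in Wt, against 6.65, 5.94 and 5.23 in C, a difference of -0.87 (SE 0.27, limma adjusted p 0.145). All Wt values were alike and near the brightness limit, while C spread widely with C 3 close to Wt. Postn had 5.07, 4.88 and 5.06 in Wt, against 5.70, 6.12 and 5.75 in C, a difference of -0.85 (SE 0.25, limma adjusted p 0.144), a ratio of 0.555. Dpt, the fibril-binding protein dermatopontin, had 8.74, 8.65 and 8.92 in Wt, against 9.31, 9.15 and 9.02 in C, a difference of -0.39 (SE 0.13, limma adjusted p 0.145). The gene of decorin, Dcn, lies next to Lum on chromosome 10, and it differed by 0.07 (SE 0.11).

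Fibromodulin went the other way. Fmod had 9.97, 10.21 and 9.43 in Wt, against 9.47, 9.29 and 9.09 in C, a difference of 0.58 (SE 0.25, limma adjusted p 0.166), with Wt 3 within the C range. Timp2 had 10.06, 10.20 and 9.63 in Wt, against 9.69, 9.66 and 9.61 in C, a difference of 0.31 (SE 0.16, limma adjusted p 0.226), and its 5 probe sets ran between 0.31 and 0.60. In both genes Wt 3 sat with the C arrays and the other Wt animals above them. Nid1 had 8.41, 8.35 and 8.46 in Wt, against 8.80, 8.71 and 8.58 in C, a difference of -0.29 (SE 0.16, limma adjusted p 0.227). Its second probe set past the limit gave 0.01, so the value holds for the brighter one alone. Col4a1 and Col4a2, head-to-head neighbours on chromosome 8, stood at 0.19 and 0.34.

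Without Wt 3, 6 members passed the adjusted threshold in Wt minus C, which were Lum, Postn, Dpt, Lamb1, Fmod and Timp2, but so did 4119 of all genes tested (39.6%). In that fit Lum stood at -0.86, Postn at -0.88, Dpt at -0.46, Lamb1 at -0.47, Fmod at 0.80 and Timp2 at 0.47. With all arrays, the 3 Lamb1 probe sets past the limit gave -0.28, 0.22 and -0.05, so its sign depends on the probe set here too. Without Wt 2 the members' median was -0.09, with 18 below 0, and 0 passed. With array quality weights 10 members passed, among them Postn, Dpt and Fmod but not Lum, with 55.6% of all genes. For Lum the difference was -0.52 without C 1 and -1.23 without C 3.

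Some members were low in both groups of the SKM-Tg line. Lum, Postn, Dpt and Lama2, 4 of the 29 members, lay lower in all 7 SKM-Tg and Wt arrays than in all 6 SKM-KO and C arrays, as 2.66% of all genes did. On the higher side there were 0 members and 3.32% of all genes. Lum had a lowest signal of 4.94, a median of 5.05 and a highest of 5.19 in the SKM-Tg and Wt arrays, against 5.23, 5.91 and 6.65 in the SKM-KO and C arrays. Its signals were 5.04, 4.94, 5.19 and 5.10 in SKM-Tg, and 5.57, 6.25 and 5.88 in SKM-KO. The SKM-Tg animals thus sat with Wt, and the SKM-KO animals inside the range of C. Postn had a lowest signal of 4.88, a median of 5.07 and a highest of 5.26 in SKM-Tg and Wt, against 5.43, 5.93 and 6.72 in SKM-KO and C, and SKM-Tg alone had 5.22, 5.23, 4.89 and 5.26. For Dpt the values were 8.60, 8.92 and 8.99 against 8.99, 9.18 and 9.31, so that the groups only just parted, and for Lama2 they were 8.23, 8.40 and 8.53 against 8.56, 8.67 and 8.91. Wt 3, which resembled SKM-KO and C over all genes, kept the low signals of its own line for Lum (5.05) and Postn (5.06), both near the brightness limit. For the others it lay closer to SKM-KO and C than Wt 1 and Wt 2 did. It was the highest of the 7 arrays for Lama2 (8.53) and the highest Wt array for Dpt (8.92).

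**Figure D5:**
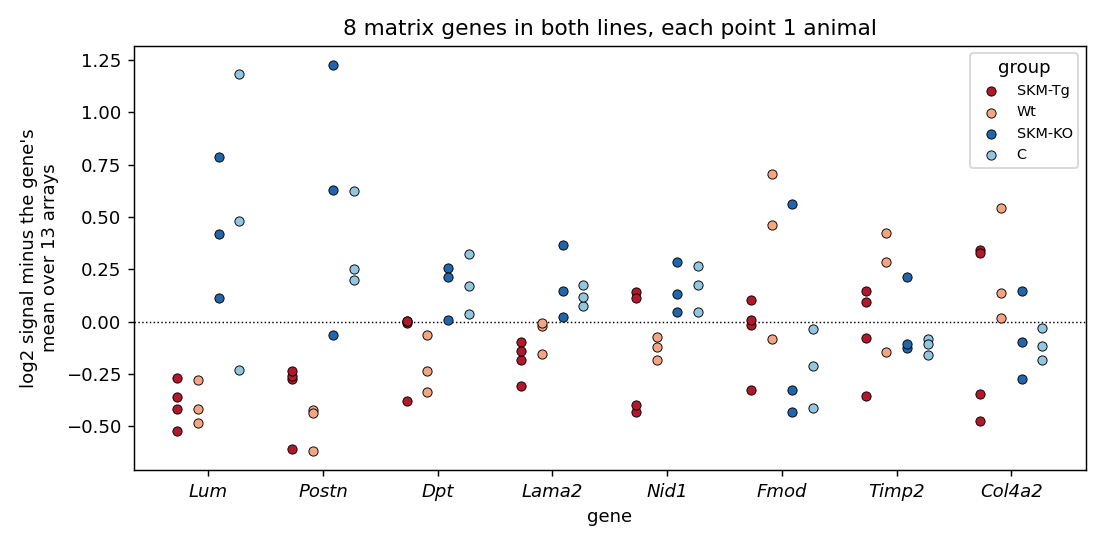
Log2 signal minus the gene's mean over 13 arrays for 8 matrix genes, with points for single animals coloured as SKM-Tg, Wt, SKM-KO and C. Lum, Postn, Dpt and Lama2 lie lower in all 7 SKM-Tg and Wt animals than in all 6 SKM-KO and C animals, and the other 4 genes overlap between the lines.

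The sequences upstream of 4 of these genes are shown because these members had the smallest unadjusted p in Wt minus C among those with an entry in the RefSeq promoter table (build GRCm38.p6); Lum had none there. Each is the 250 bases before the annotated start, written 5′ to 3′ on the gene's own strand, at chr3:54360857-54361106 (+) for the second start of Postn, chr1:164796413-164796662 (+) for Dpt, chr1:134037004-134037253 (+) for Fmod and chr11:118355412-118355661 (-) for Timp2. Capitals mark matches to 3 motifs searched on both strands. These are the TATA-box letters TATAAA, the CCAAT box, and the GC-box letters GGGCGG.
Postn: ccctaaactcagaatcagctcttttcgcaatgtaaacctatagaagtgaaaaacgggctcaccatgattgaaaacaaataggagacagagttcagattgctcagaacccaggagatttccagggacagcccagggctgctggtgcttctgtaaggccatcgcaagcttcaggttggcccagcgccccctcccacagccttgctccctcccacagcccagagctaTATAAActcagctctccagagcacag
Dpt: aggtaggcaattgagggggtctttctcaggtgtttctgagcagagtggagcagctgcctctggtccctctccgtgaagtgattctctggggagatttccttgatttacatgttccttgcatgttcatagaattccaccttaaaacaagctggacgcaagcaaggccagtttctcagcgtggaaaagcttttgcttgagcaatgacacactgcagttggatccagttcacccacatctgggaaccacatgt
Fmod: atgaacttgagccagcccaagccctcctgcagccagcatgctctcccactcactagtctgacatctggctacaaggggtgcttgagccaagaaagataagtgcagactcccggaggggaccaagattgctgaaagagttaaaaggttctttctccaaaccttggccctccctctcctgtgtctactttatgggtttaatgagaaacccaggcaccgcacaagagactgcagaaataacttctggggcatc
Timp2: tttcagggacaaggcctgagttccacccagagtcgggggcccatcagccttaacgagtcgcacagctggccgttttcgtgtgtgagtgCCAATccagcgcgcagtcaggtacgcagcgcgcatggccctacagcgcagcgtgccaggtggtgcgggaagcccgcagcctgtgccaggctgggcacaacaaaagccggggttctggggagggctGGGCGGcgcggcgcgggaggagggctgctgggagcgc
The Postn stretch held TATAAA, found in 12.4% of 32851 promoters of this length, and had a GC content of 52.0%, where the median promoter had 52.4%. The Timp2 stretch held CCAAT, found in 33.8%, and GGGCGG, found in 32.7%, with a GC content of 68.0%. The stretches of Dpt and Fmod held none of these letters, with GC contents of 48.8% and 51.2%. Of 24 members with an entry, Fbn1 among them, 3 held TATAAA, 7 CCAAT and 12 GGGCGG, each in at least 1 of their starts. The other annotated start of Postn, with its stretch at chr3:54359017-54359266 (+), held none of the 3 motifs and had a GC content of 40.4%. A match of letters is not a site of binding.

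Genes that make, modify or read the matrix were counted next, from lists that exclude the members. In SKM-Tg minus Wt, 0 genes of any of these lists passed limma's adjusted threshold. Over all genes tested 62.2% were below 0 in this comparison, and 6.89% had an unadjusted p under 0.05. The share below 0 was 53.7% after quantile normalization and 50.9% after cyclic loess, and the counts of these lists were not repeated there. The 14 other fibroblast markers tested were all below 0 with a median of -0.19, and Cd248, a stromal surface glycoprotein, stood at -0.62 (SE 0.28). Of 16 collagen processing genes 13 were below 0 with a median of -0.23. Among them P4ha2, a prolyl hydroxylase, stood at -0.45 (SE 0.14) and Serpinh1, the collagen chaperone, at -0.51 (SE 0.19), 2 of the 3 with an unadjusted p under 0.05. Of 17 matrix receptors 14 were below 0 with a median of -0.20, and Cd44, the hyaluronan receptor, stood at -0.52 (SE 0.14) and Ddr2, a collagen receptor, at -0.37 (SE 0.14). The 16 other proteoglycans and glycoproteins had 14 below 0 and a median of -0.25, with Vtn, or vitronectin, at -0.79 (SE 0.31) and Emilin1, an elastic fibre protein, at -0.35 (SE 0.16). For 13 other proteases and inhibitors the median was -0.18, for 6 other basement membrane genes -0.24, for 4 other collagens -0.17 and for 16 genes of TGF-beta signalling, the main inducer of matrix synthesis, -0.13. Tgfb3, 1 of its ligands, stood at -0.44 (SE 0.17) and the laminin chain Lamb2 at -0.43 (SE 0.18). Among markers of other cell types, 10 of 11 macrophage genes were below 0 with a median of -0.25, 10 of 12 endothelial genes with -0.19 and 7 of 8 muscle fibre genes with -0.07, while 4 of 4 fat cell genes were above 0 with a median of 1.06. All 5 tendon genes were below 0 with a median of -0.25, as were 4 of 6 smooth muscle and pericyte genes with -0.0077, and 3 of 4 Schwann cell genes were above 0 with 0.04. Limma passed 0 genes of these lists as well, and what part they have in the matrix values was not tested.

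In SKM-KO minus C the matrix and fibroblast lists had medians close to 0. They were 0.06 for collagen processing, 0.03 for matrix receptors, 0.08 for other proteoglycans and glycoproteins, 0.06 for other fibroblast markers and 0.03 for TGF-beta signalling, and 0 genes of these lists passed at an adjusted p of 0.05 or had an unadjusted p under 0.05. The farthest from 0 among those named by p were Thbs2, a matrix thrombospondin, at 0.32 (SE 0.21) and Pcolce2, an enhancer of procollagen cleavage, at 0.26 (SE 0.16). Several marker lists of other cell types lay farther from 0, in a comparison where 54.0% of all genes were above 0. Macrophage markers had a median of 0.20 with 11 of 11 above 0, tendon markers 0.15 with 4 of 5, fat cell markers 0.47 with 4 of 4 and Schwann cell markers 0.33 with 4 of 4. Single animals stood out in some of these lists. Mean fat cell levels were -1.01, 0.99 and -1.20 in SKM-KO, so SKM-KO 2 alone was high. Of the SKM-KO and C arrays, SKM-KO 3 had the highest tendon level (0.66), SKM-KO 1 the highest Schwann cell level (0.33) and C 3 the lowest macrophage level (-0.29). Among the Schwann cell markers 1 had an unadjusted p under 0.05 (0.557% of all genes), and 0 genes of these 4 lists passed the adjusted threshold. Endothelial, muscle fibre, and smooth muscle and pericyte markers had medians of -0.03, 0.00018 and 0.04.

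Between the controls, Wt and C, 0 genes of these lists passed the adjusted threshold. The 16 other proteoglycans and glycoproteins had 12 above 0 (58.8% of all genes were above 0) and a median of 0.25, with values on both sides among the small proteoglycans. Aspn (asporin) stood at -1.27 (SE 0.34) and Ogn (osteoglycin) at -1.25 (SE 0.36), both with limma adjusted p 0.144, and these neighbours on chromosome 13 belong to the same family as lumican, while Fmod, Bgn and Dcn stood at 0.58, 0.17 and 0.07. Of 13 other proteases and inhibitors 7 were above 0 and 6 below, with a median of 0.13. Among them Fap, the fibroblast activation protease, stood at -0.75 (SE 0.31) and Ctsk, a collagen-degrading cathepsin, at -0.37 (SE 0.15). At an unadjusted p under 0.05 this list had 2 genes higher in Wt (16.2% of all genes) and 2 lower (11.6%). Of 14 other fibroblast markers 11 were above 0 with a median of 0.15, and of 16 collagen processing genes 13 with a median of 0.23. Itga7, the laminin-binding integrin of muscle, stood at 0.61 (SE 0.16), Lamb2 at 0.55 (SE 0.19) and Sspn, a member of the dystrophin complex, at -0.56 (SE 0.14). Macrophage markers went both ways, with Cd163 at -1.07 (SE 0.26) and Cd68 at 0.87 (SE 0.23).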

How the data were processed

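The authors deposited log2 signals for 45141 probe sets, made with RMA per the submitters' processing notes, which give no version; RMA subtracts background, equalises the arrays and turns the probes of a set into 1 value. Per the labels, 25 ng of RNA from each quadriceps was amplified and biotin-labelled. Of the probe sets 104 were controls, 28898 had 1 gene symbol in the annotation used here, 551 several and 15588 none, and only those with 1 symbol were used. Genes took their brightest probe set and were tested where its mean reached 4.90, the median over all probe sets that were not controls.

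One limma model (version 3.58.1, R 4.3.3) held the 4 group means of the 13 arrays, with moderated variances on 9 residual and 3.62 prior degrees of freedom. Tests were two-sided with Benjamini-Hochberg adjustment over all 10411 genes tested, and SE means the standard error from this model. The model was also run on simulated arrays, whose noise was independent between genes and equally wide in all groups. The arrays here had neither trait, so that run does not vouch for these tests. Arrays have no read depth, and their number limits the precision. No batch is recorded.

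The members and lists were chosen with earlier results of these data known. All members are named, and values of every animal are given for those with the 6 smallest p-values in a comparison and for Col1a1, Col3a1, Col4a1, Dcn, Fn1, Pdgfra and Timp1. From the other lists up to 2 genes were named by p. Alternatives tried were other scalings (median, quantile, cyclic loess), no filter or a stricter one, averaging all probe sets of a gene, a trended robust variance, array quality weights, separate fits and leaving out each array.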

Additional observations from a re-analysis of the deposited data

Results flagged for a closer look

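In the SKM-Tg group, 34 sets of 4 values, those of the 33 members measured and of their mean level, were examined for an animal far from the rest, which chance alone gives in about 1 in 20. There were 3. Postn was 4.89 in SKM-Tg 3, with the other SKM-Tg animals at 5.22, 5.23 and 5.26. Timp1 was 4.33 in SKM-Tg 3, against 3.92, 3.91 and 3.88 in the others, all of them dim signals. Dpt was 8.60 in SKM-Tg 4, with the others at 8.98, 8.99 and 8.99. Groups of 3 were not examined in this way.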

How the results depend on the processing

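No paired analysis was made, because the labels carry animal numbers but no replicate or litter numbers shared between groups. Array quality weights, which gave Wt 1 a weight of 7.23, Wt 2 of 0.147 and Wt 3 of 0.23, moved the counts most. With them SKM-Tg minus Wt had 10 members past the adjusted threshold and 20 at an unadjusted p under 0.05 (Col6a2 -0.82, Col6a3 -0.90, Col1a1 -0.70, Fn1 -0.62), while 14.3% of all genes passed and 33.1% had an unadjusted p under 0.05. The difference of effects had 1 (Col6a2 at -1.01) and 19 (23.6% of all genes), with a median of -0.56. Wt minus C had 10 and 13, while 55.6% and 60.8% of all genes did, and SKM-KO minus C had 1 at an unadjusted p (5.64% of all genes). The calls in comparisons that involve Wt rest largely on 1 Wt array. A trended robust variance gave 1 member, Dcn, at an unadjusted p in SKM-Tg minus Wt and in the difference of effects, and a filter at the 75th percentile left 2, Dpt and Fmod, in Wt minus C, since it drops Lum and Postn. A fit of SKM-Tg and Wt alone gave an unadjusted p under 0.05 to 2.85% of all genes, against 6.89% in the main fit, and to no member. For Wt and C alone the share was 13.4%, against 27.8%, and the members were Col5a2, Dpt, Fmod, Lum, Nid1 and Postn.

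With each array left out in turn, 0 members passed in SKM-Tg minus Wt, SKM-KO minus C or the difference of effects, and 0 to 6 in Wt minus C, with 6 reached without Wt 3. Members at an unadjusted p under 0.05 numbered 0 to 9 in SKM-Tg minus Wt, 0 to 1 in SKM-KO minus C, 0 to 6 in the difference of effects and 3 to 7 in Wt minus C, most of them without Wt 3 in each but SKM-KO minus C, where it was Postn without SKM-KO 1 (0.932% of all genes). Without Wt 3 the shares of all genes were 30.8%, 15.1% and 50.4% in the other 3. The medians ran between -0.40 and -0.12, between -0.05 and 0.14, between -0.51 and -0.18, and between -0.09 and 0.16 in that order, the SKM-KO minus C median being lowest without SKM-KO 3. Sign changes in SKM-KO minus C included Postn (-0.077 to 0.57), Col1a1 (-0.12 to 0.36) and Col4a1 (-0.024 to 0.11), and in Wt minus C Fn1 (-0.012 to 0.46); the cause was not tested. Of the 29 members, 23 turned sign without some array in SKM-KO minus C, 4 in SKM-Tg minus Wt, 6 in the difference of effects and 9 in Wt minus C, and 10, 4, 4 and 3 did so under another setting, Thbs4 and Mfap5 in SKM-KO minus C among both. With 3 or 4 animals a group and a member spread of 0.34, small differences were beyond reach.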
